A study of Homo sapiens with 4 samples.

Results

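Assembled transcripts that carry no Ensembl identifier made up 2832 of the 106179 transcripts, or 2.67%, counted by RNA-seq in HepG2 cells, an established human liver cancer line. They were taken as every entry of the deposited table whose identifier starts with TCONS, so no measured value entered the choice. Total RNA was sequenced in 4 libraries, of which 2 came from cells labelled as resistant to oxaliplatin, a platinum drug that forms DNA adducts, and 2 from wild-type cells of the same line. The study asked which long intergenic noncoding RNAs differ between them. The labels list no treatment of the sequenced cells and give neither a dose nor a length of selection. They do not say whether the resistant cells are 1 clone or whether replicate libraries were made from different cultures. The p-values therefore measure only how far these libraries spread, and that spread may be technical.

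Deposited counts came to 43473826 and 44063444 in resistant cells and to 38113398 and 34898860 in wild-type cells, in all cases as estimated counts per transcript. No pair of libraries agreed within sampling noise, so all 4 were kept. Of 28 hepatocyte and HepG2 marker genes, 20 had noncoding transcripts in the table, and 13 of these, among them *AFP*, *SERPINA1*, *TF* and *TTR*, were at 0 in all 4 libraries. *H19*, a fetal liver lncRNA in that list, had 5958 and 5116 counts in resistant cells and 6486 and 8186 in wild-type cells. Summed CPM (counts scaled to library size) of that list lay between 118.8 and 131.7 in resistant cells and between 180.6 and 248.5 in wild-type cells. Nearly all of it was *H19*, since the other 19 genes summed to 0.726 and 2.26 CPM in resistant cells and 0.555 and 0.787 CPM in wild-type cells. For 10 fibroblast and endothelial genes the sums were 214.3 to 341.6 in resistant cells and 230.5 to 248.4 in wild-type cells. Most of these sums came from *FAP* and *VIM*. *FAP* was at 269.9 and 149.5 CPM in resistant cells and 137.5 and 112.2 CPM in wild-type cells. *VIM* was at 68.7 and 63.4 CPM in resistant cells and 88.1 and 128.7 CPM in wild-type cells. The other genes of that list were at most at 4.84 CPM each. For 4 blood cell genes the sums were at most 0.594 in either group. These values cover noncoding transcripts only, and their part in the results was not tested.

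Transcript assembly joins overlapping RNA-seq reads into transcript models. Identifiers of the form TCONS are those that the Cufflinks programs give to models merged over several libraries. Such models can be unannotated long noncoding RNAs, further isoforms of known genes, extended transcript ends or pieces of introns. Long noncoding RNAs act, among other ways, as scaffolds for protein complexes, as guides of chromatin modifiers and as decoys of microRNAs, and many are transcribed without a known role. The table gives no position, length, strand or gene for these transcripts, so none is given a name or role here, and their levels are compared as counts, not per length.

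As a class, the assembled transcripts held far more of the sequencing than their number, and less of it in resistant cells. They took 10.6% and 10.5% of all counts in the resistant libraries, against 13.7% and 14.2% in the wild-type libraries. The mean was 10.5% ± 0.0298 in resistant cells and 14.0% ± 0.314 in wild-type cells (SD, n = 2 each). The shares of the groups did not overlap and lay further apart than the libraries of either group. The difference lay in a few transcripts. Without the 5 of highest mean, the other 2827 took 5.09% ± 0.444 of all counts in resistant cells and 5.08% ± 0.151 in wild-type cells, a difference smaller than the spread between libraries.

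**Figure D1:**
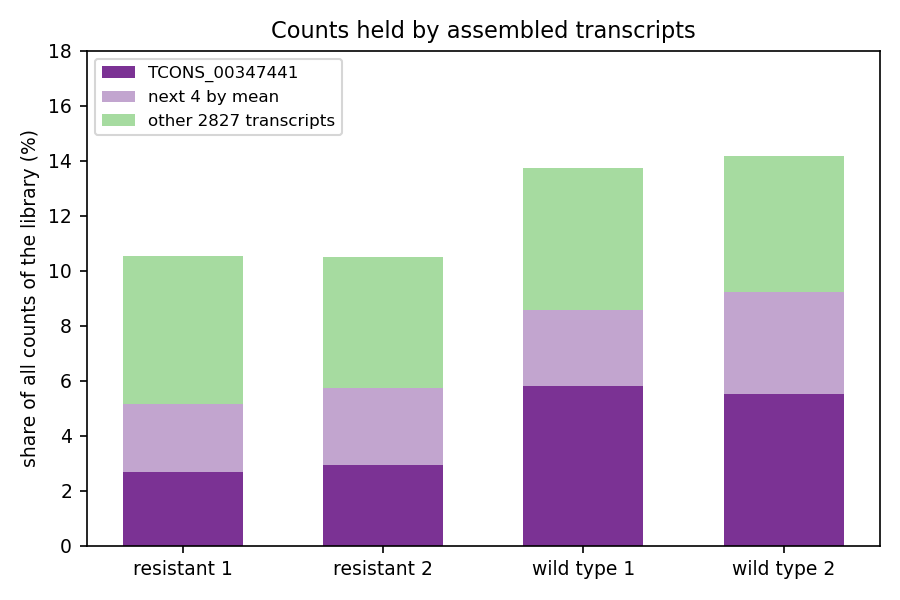
Bars give the share of all counts of a library (%) held by assembled transcripts in each of the 4 libraries, resistant cells left and wild-type cells right. The dark part, TCONS_00347441, is smaller in both resistant libraries, at 2.67% and 2.94%, than in both wild-type libraries, at 5.81% and 5.52%, while the green part for the other 2827 transcripts is of similar height in all 4.

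TCONS_00347441 was the most abundant transcript of the whole table in every library. It had 1162322 and 1297491 counts in resistant cells, against 2214857 and 1924895 in wild-type cells. Both resistant values were below both wild-type values, with means of 27558 ± 2835 CPM in resistant cells and 59861 ± 2269 CPM in wild-type cells (SD, n = 2). The log2 fold change was -1.12 ± 0.20 (SE), and the difference did not pass edgeR's quasi-likelihood test after Benjamini-Hochberg adjustment over all transcripts (adjusted p = 0.338). Over the alternative edgeR and limma fits the direction was the same, and the DESeq2 Wald test put it past the threshold (adjusted p = 0.0425, within a range of 0.0425 to 0.949 over all alternatives).

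The next 4 in order of mean level were also among the 10 most abundant transcripts of the table by mean. TCONS_00341423 had 375889 and 432388 counts in resistant cells and 346067 and 407871 in wild-type cells, and the groups overlapped when scaled (8264 and 9852 CPM in resistant cells, 9604 and 12344 CPM in wild-type cells). TCONS_00025993 was at 4932 and 6783 CPM in resistant cells and at 9629 and 9251 CPM in wild-type cells, without overlap, and its log2 fold change was -0.69 ± 0.27 (SE). TCONS_00167923 was the steadiest of the 5, with means of 6518 ± 280 CPM in resistant cells and 6852 ± 630 CPM in wild-type cells (SD, n = 2). TCONS_00172899 had 189131 and 205250 counts in resistant cells and 125293 and 338250 in wild-type cells. Its wild-type libraries thus lay on either side of the resistant ones. None of these 4 passed the test (edgeR adjusted p between 0.735 and 0.998).

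Counts were concentrated on these few transcripts, and more so in wild-type cells. TCONS_00347441 alone took 26.7% ± 1.89 of all counts of assembled transcripts in resistant cells and 40.6% ± 2.41 in wild-type cells (SD, n = 2). The 10 of highest mean took 54.7% ± 2.42 in resistant cells and 67.5% ± 0.285 in wild-type cells. In the resistant libraries 366 and 359 transcripts were needed to reach 90% of the counts of the class, against 233 and 242 in the wild-type libraries. Of the 10 transcripts of highest mean in the whole table, 5 were assembled ones, but of the 100 highest only 8 were and of the 1000 highest 56. Below the first 5 the levels fell steeply, since TCONS_00281659 and TCONS_00001806, the next that were counted in all 4 libraries, averaged 835 and 826 CPM in resistant cells and 953 and 940 CPM in wild-type cells. Of the others among the 15 highest, TCONS_00097941 had 26108 and 27632 counts in resistant cells and 14028 and 18789 in wild-type cells, and TCONS_00254991 had 32737 and 25888 in resistant cells and 10042 and 20275 in wild-type cells. Scaled, the groups overlapped for TCONS_00254991, at 719.7 and 589.8 CPM in resistant cells and 278.7 and 613.6 CPM in wild-type cells. TCONS_00339379, with 36098 and 20422 counts in resistant cells and 21795 and 6868 in wild-type cells, and TCONS_00349333, with 30361 and 4101 in resistant cells and 9510 and 28764 in wild-type cells, varied within each group by more than the groups differed.

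Most assembled transcripts were counted in most libraries. A count above 0 was found for 2100 and 2093 in the resistant libraries and for 1990 and 1968 in the wild-type libraries. That is 74.2% and 73.9% of them in resistant cells and 70.3% and 69.5% in wild-type cells, whereas of the transcripts with Ensembl identifiers 44.0% and 44.0% were counted in resistant cells and 42.1% and 41.3% in wild-type cells. In all 4 libraries a count was found for 1484 assembled transcripts, or 52.4%, against 14.0% of the Ensembl transcripts of lincRNA and antisense genes, 9.53% of Ensembl identifiers outside GENCODE release 29 and 69.1% of annotated retained introns. In none was a count found for 279, or 9.85%. At 0 counts a library leaves room for up to 3, which is 0.0660 and 0.0684 CPM in resistant cells and 0.0833 and 0.0908 CPM in wild-type cells, for counting error only. The median level of those counted was 4.27 and 4.51 CPM in resistant cells and 4.54 and 4.96 CPM in wild-type cells, against 2.20 and 2.19 CPM in resistant cells and 2.33 and 2.39 CPM in wild-type cells for Ensembl identifiers. By mean level over the 4 libraries, 6 exceeded 1000 CPM, 112 lay between 100 and 1000 CPM, 667 between 10 and 100 CPM and 1142 between 1 and 10 CPM.

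The libraries of a group agreed less well on these transcripts than on Ensembl ones. Over the 2832 assembled transcripts, log2(CPM + 0.1) had a Pearson correlation of 0.709 between the resistant libraries and 0.669 between the wild-type libraries. Between a resistant and a wild-type library it ran from 0.645 to 0.693, a range that includes the value within wild-type cells. Over the 103347 Ensembl identifiers the values were 0.860 within resistant cells, 0.849 within wild-type cells and 0.841 to 0.848 between groups. Of these identifiers 47.3% were at 0 in all 4 libraries, against 9.85% of the assembled transcripts, so the sets differ in shared zeros. Over tested transcripts only, assembled ones had 0.648 within resistant cells and 0.578 within wild-type cells, against 0.721 and 0.684 for Ensembl ones. The points share their libraries, depth and many zeros, and these are descriptions across transcripts, not tests.

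At matched levels, zeros were more frequent among assembled transcripts, while the ratios between libraries drew closer to those of Ensembl transcripts with abundance. Among transcripts with a mean between 1 and 10 CPM, 39.2% of the 1142 assembled ones had a count of 0 in at least 1 library, against 24.9% of 21252 Ensembl ones. Between 10 and 100 CPM the shares were 23.1% of assembled and 13.3% of Ensembl transcripts. The median absolute log2 ratio between libraries of a group, for assembled transcripts of 1 to 10 CPM, was 0.77 in resistant cells and 0.94 in wild-type cells, against 0.64 in resistant cells and 0.71 in wild-type cells for Ensembl ones. Between 100 and 1000 CPM it was 0.37 in resistant cells and 0.51 in wild-type cells, against 0.44 in resistant cells and 0.49 in wild-type cells for Ensembl ones. There 13.4% of the 112 assembled and 6.79% of 1503 Ensembl transcripts had a 0. The 4 pairs of a resistant and a wild-type library had medians of 0.49 to 0.56 for assembled transcripts of that class.

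Many assembled transcripts were counted heavily in 1 library and not at all in its partner. In resistant cells 61 were at 0 in 1 library and above 1000 counts in the other, which is 11% of the 554 that passed 1000 counts in either library. In wild-type cells there were 69, or 14.5% of 477. For Ensembl identifiers the same shares were 8.13% in resistant cells and 7.94% in wild-type cells.

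**Figure D2:**
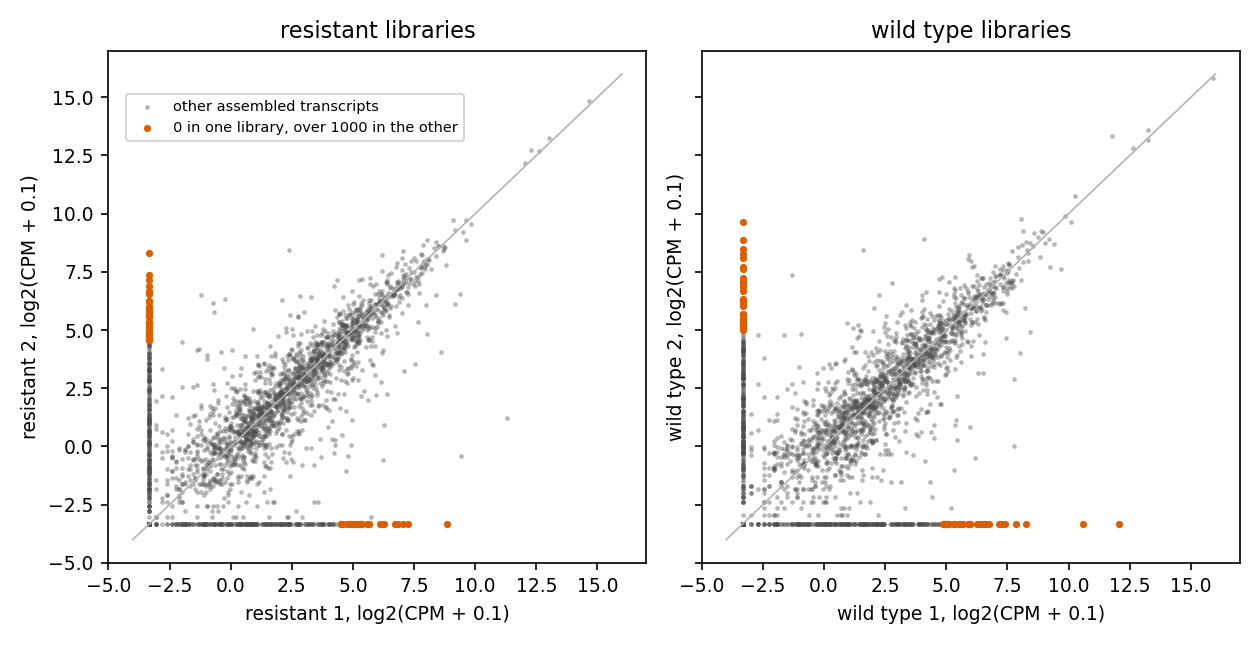
Each point is 1 of the 2832 assembled transcripts, with its log2(CPM + 0.1) in replicate 1 on the horizontal axis and in replicate 2 on the vertical axis, for resistant libraries left and wild-type libraries right. Orange points along the edges, 61 in resistant and 69 in wild-type cells, had 0 counts in 1 library and over 1000 in the other.

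Among the assembled transcripts at 0 in 1 resistant library, the highest counts in the other belonged to TCONS_00298280, TCONS_00356416, TCONS_00292088, TCONS_00357067 and TCONS_00196196. TCONS_00298280 had 20879 and 0 counts in resistant cells and 18110 and 19606 in wild-type cells, so that 1 resistant library stood apart from the other 3. TCONS_00356416 had 0 and 13889 counts in resistant cells and 44863 and 58076 in wild-type cells, and its groups did not overlap. TCONS_00292088 had 0 and 7159 counts in resistant cells and 157 and 0 in wild-type cells. For TCONS_00357067 the counts were 7020 and 0 in resistant cells and 10837 and 2046 in wild-type cells, and for TCONS_00196196 they were 0 and 6280 in resistant cells and 246 and 4243 in wild-type cells. A mean over the 2 resistant libraries describes neither of them in these cases. Summed with its neighbour in identifier number, TCONS_00357067 came to 22347 and 3963 counts in resistant cells and 12075 and 6440 in wild-type cells. TCONS_00196196, summed in the same way, came to 17765 and 6998 in resistant cells and 16635 and 13435 in wild-type cells.

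The same pattern in wild-type cells was led by TCONS_00172898, TCONS_00275535, TCONS_00358396, TCONS_00184639 and TCONS_00272073. TCONS_00172898 had 155709 counts in wild-type replicate 1 and none in the other 3 libraries. TCONS_00358396 had 26511 counts in wild-type replicate 2 and none elsewhere, and both of these fell below the expression filter of the test. TCONS_00275535 had 0 and 1036 counts in resistant cells and 55919 and 0 in wild-type cells. TCONS_00184639 had 31039 and 29 counts in resistant cells and 0 and 15559 in wild-type cells, so that each group held 1 high and 1 low library. TCONS_00272073 had 0 and 2728 counts in resistant cells and 0 and 11687 in wild-type cells. Another of the 15 most abundant by mean, TCONS_00249952, had 113614 and 98 counts in resistant cells and 10905 and 0 in wild-type cells.

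No assembled transcript differed between resistant and wild-type cells past the adjusted threshold of the main test. Of the 2832, 2076 passed the expression filter, and edgeR with Benjamini-Hochberg adjustment over all 42393 transcripts tested called 0 of them (smallest adjusted p = 0.329), against 0% of all transcripts tested. limma-voom called 0 as well. The DESeq2 Wald test called 145, or 6.98% of those tested, with 80 above and 65 below wild type, against 5.33% of all transcripts tested. At an unadjusted p under 0.05, edgeR gave 197 assembled transcripts, or 9.49% of those tested, against 7.74% of all transcripts tested. Of the 2076 tested, 106 were higher in resistant cells and 91 were lower, where all transcripts tested give 4.56% higher and 3.18% lower. limma-voom gave 105 higher and 92 lower at the same limit, or 197 in all (9.49% of those tested), against 4.04%, 3.28% and 7.32% of all transcripts tested. DESeq2 gave 155 higher and 147 lower, or 302 in all (14.5% of those tested), against 6.11%, 5% and 11.1% of all transcripts tested.

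The scaling centres the fold changes, so their median says little about the balance of directions. The median log2 fold change of the tested assembled transcripts was 0.02, and that of all tested transcripts was 0.02. Scaled by library totals only, both medians were 0.14, and the unadjusted list held 123 higher and 76 lower. Of that list 61.8% were higher, against 64.4% of the unadjusted list over all transcripts. The distribution was wider for the assembled ones, with 5th and 95th percentiles of -2.88 and 3.66 on the log2 scale against -2.11 and 2.62 for all transcripts tested. In 876 of the 2076, or 42.2%, the groups did not overlap, against 40.3% of all transcripts tested. These were 484, or 23.3%, with higher CPM in both resistant libraries, against 21.4% of all transcripts tested. The other 392, or 18.9%, had lower CPM in both, against 18.9% of all transcripts tested.

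**Figure D3:**
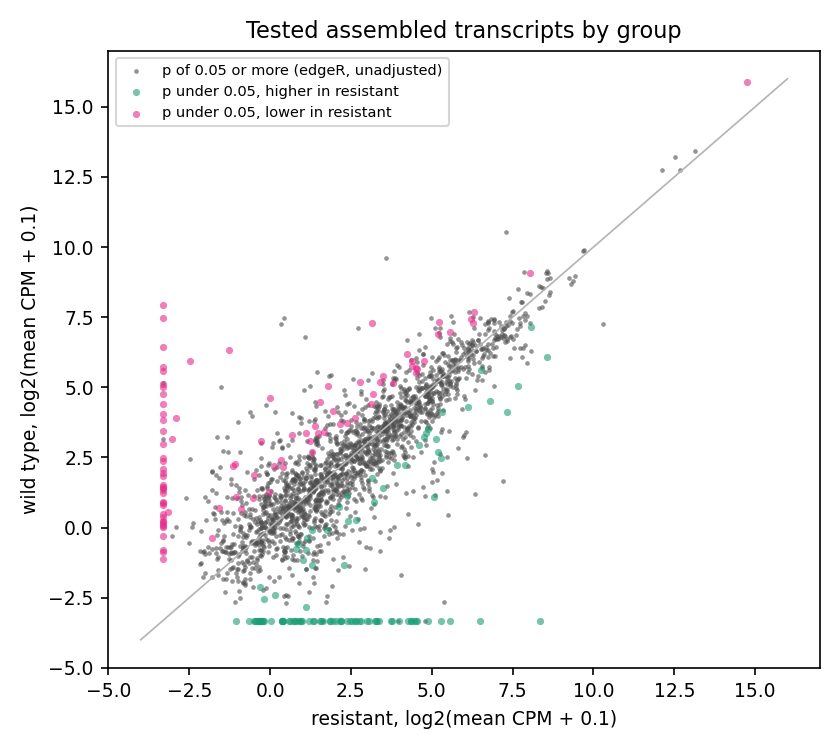
Each point is 1 of the 2076 tested assembled transcripts, with its log2(mean CPM + 0.1) in resistant cells on the horizontal and in wild-type cells on the vertical axis. Green and pink points, 106 higher and 91 lower in resistant cells, had an unadjusted edgeR p under 0.05, and many of them lie on the edges where the other group had no counts.

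Many transcripts of the unadjusted list had no counts in 1 group, 105 of 197 or 53.3%, against 46.6% of the unadjusted list over all transcripts. Of the 106 with a higher mean in resistant cells, 68 had 0 counts in both wild-type libraries, and of the 91 with a lower mean, 37 had 0 counts in both resistant libraries. Where all 4 libraries had a count, 87 of 1459 tested assembled transcripts had an unadjusted p under 0.05, or 5.96%, against 4.80% of all tested transcripts of that kind.

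Among transcripts with more counts in resistant cells, the 12 with the smallest p all had 0 counts in both wild-type libraries, and none passed the test (edgeR adjusted p = 0.329 for each). TCONS_00335206 had 951 and 1131 counts in resistant cells, at least 268-fold higher when the wild-type libraries are set to 3 counts each. TCONS_00345606 had 1111 and 1492 counts in resistant cells and TCONS_00353769 had 820 and 1204, at least 336-fold and 261-fold higher by the same limit. TCONS_00345606 forms a run with TCONS_00345605, and the sum of both was at 42.3 and 64.8 CPM in resistant cells and 44.9 and 42.0 CPM in wild-type cells, with overlap. TCONS_00363201, the most abundant of them, had 2376 and 5541 counts in resistant cells, at least 1025-fold higher. In each of these the resistant libraries agreed within a factor that was small beside the gap to wild type. The other 8 were TCONS_00281272, TCONS_00219857, TCONS_00261380, TCONS_00032332, TCONS_00040732, TCONS_00287954, TCONS_00220343 and TCONS_00335207, with counts between 180 and 898 in resistant cells. TCONS_00335207 forms a run with TCONS_00335206, so these are not separate cases. TCONS_00363201 and TCONS_00281272 stand in runs of 11 and 32, whose summed CPM was 1.06-fold and 1.93-fold higher in resistant cells. The bounds over the 12 ran from at least 51.7-fold to at least 1025-fold and cover counting error only.

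In the other direction, 9 of the 12 of smallest p had 0 counts in both resistant libraries (edgeR adjusted p = 0.329 for each of the 12). TCONS_00020569 had the smallest p of all assembled transcripts, 0.000278 before adjustment, with 1 and 1 counts in resistant cells and 316 and 300 in wild-type cells. The ratio of wild-type to resistant cells was 398.5, with an exact 95% interval of 109.9 to 3298 for counting error. TCONS_00251724 had 0 counts in resistant cells and 1967 and 1358 in wild-type cells, at least 712-fold lower. TCONS_00342035, with 646 and 1214 counts in wild-type cells and 0 in resistant cells, was at least 407-fold lower. TCONS_00005391 and TCONS_00062927 were counted in every library. TCONS_00005391 had 42 and 38 counts in resistant cells and 1159 and 570 in wild-type cells, a log2 fold change of -4.78 ± 0.58 (SE), and TCONS_00062927 had 26 and 39 counts in resistant cells and 266 and 307 in wild-type cells, a log2 fold change of -3.51 ± 0.53 (SE). The other 7 were TCONS_00368616, TCONS_00150596, TCONS_00144201, TCONS_00294531, TCONS_00340443, TCONS_00208245 and TCONS_00150595, with counts between 91 and 965 in wild-type cells and 0 in resistant cells. TCONS_00150595 and TCONS_00150596 form a run, so these too are not separate cases. TCONS_00368616 stands in a run of 3 whose sums overlapped, at 20.9 and 10.8 CPM in resistant cells and 13.3 and 17.4 CPM in wild-type cells. TCONS_00294531 stands in a run of 2, whose sum is not given here.

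Transcripts counted in all 4 libraries and with an unadjusted p under 0.05 offer values that do not rest on zeros. The 5 of highest mean in each direction are named here, a choice made after their values were seen. TCONS_00275533 had 16535 and 17297 counts in resistant cells and 1447 and 3089 in wild-type cells. Its means were 378.8 ± 21.6 CPM in resistant cells and 66.8 ± 37.7 CPM in wild-type cells (SD, n = 2), a 5.67-fold higher mean, although the wild-type libraries were far apart. The direction of the means turns, and the groups overlap, when its run with TCONS_00275534 and TCONS_00275535 is summed, at 363.5 and 516.9 CPM in resistant cells and 1592 and 93.5 CPM in wild-type cells. TCONS_00039622 had 267.6 ± 12.6 CPM in resistant cells and 141.8 ± 22.5 CPM in wild-type cells, 1.89-fold higher. TCONS_00079552 had 91.9 ± 4.42 CPM in resistant cells and 48.5 ± 0.364 CPM in wild-type cells, also 1.89-fold higher. The libraries of each group lay close together for TCONS_00039622 and TCONS_00079552. TCONS_00267832 had 5783 and 12159 counts in resistant cells and 1298 and 979 in wild-type cells, a 6.16-fold higher mean CPM. TCONS_00016189 had 11470 and 2987 counts in resistant cells and 744 and 465 in wild-type cells, a 9.22-fold higher mean CPM.

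Lower in resistant cells, beside TCONS_00347441, were 4 transcripts with 2.03-fold to 2.63-fold lower means. TCONS_00196470 had 262.0 ± 51.2 CPM in resistant cells and 542.1 ± 102 CPM in wild-type cells (SD, n = 2), a 2.07-fold lower mean. TCONS_00023850 had 78.8 ± 20.4 CPM in resistant cells and 207.6 ± 27.4 CPM in wild-type cells, 2.63-fold lower. TCONS_00233173 had 3230 and 3374 counts in resistant cells and 4622 and 7068 in wild-type cells, a 2.31-fold lower mean CPM, and its wild-type libraries lay further apart than its resistant ones. TCONS_00210498 had 78.2 ± 10.1 CPM in resistant cells and 158.6 ± 14.9 CPM in wild-type cells, 2.03-fold lower. TCONS_00023850 and TCONS_00210498 stand in runs whose sums were also lower in both resistant libraries than in both wild-type libraries. None of these passed adjustment in edgeR.

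Presence in a single group was found for more transcripts on the resistant side. At least 10 counts in both resistant libraries and 0 in both wild-type libraries were found for 72 assembled transcripts, 2.54% of the 2832, against 1.04% of all transcripts in the table. At least 10 counts in both wild-type libraries and 0 in both resistant libraries were found for 38, or 1.34%, against 0.449% of all transcripts. Assembled transcripts were also counted more often than Ensembl ones, so the shares were taken again over those with at least 10 counts in both libraries of the group. They came to 4.24% of 1699 for resistant cells and 2.46% of 1542 for wild-type cells among assembled transcripts. Among Ensembl transcripts of lincRNA and antisense genes they were 7.20% for resistant cells and 3.55% for wild-type cells, among annotated retained introns 1.04% and 0.373%, and among all transcripts 3.09% and 1.47%, each in the same order. The assembled transcripts thus lay between the first 2 of these sets. The 72 held 1.07% and 0.725% of the assembled transcript counts in the resistant libraries, and the 38 held 0.312% and 0.860% in the wild-type libraries. The resistant libraries were the deeper ones, and the part of depth in these counts was not tested.

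The numbers in the identifiers allow neighbours to be compared. Of the 2832 assembled transcripts, 731, or 25.8%, stood in 280 runs of consecutive numbers, of which 211 held 2 transcripts, 44 held 3 and the longest held 32. A run is a statement about identifiers, and its members may share sequence and reads, so they are not replicates. Within runs, 85 of the 471 transcripts that passed 100 counts in a resistant library were at 0 in the other, and 90 of 429 in wild-type cells. After summing the counts over each run, 12 of 227 runs were in this state in resistant cells and 11 of 222 in wild-type cells. The share thus came to 5.29% for sums against 18% for single transcripts in resistant cells, and to 4.95% against 21.0% in wild-type cells. A sum is 0 only when every transcript of the run is 0, so a lower share is built into the summing, and sums over unrelated transcripts were not made.

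The run of most counts joined TCONS_00172898 and TCONS_00172899. In wild-type replicate 1 the counts were split into 155709 and 125293, while TCONS_00172899 held all of them in the other 3 libraries. Summed, the run was at 4158 and 4677 CPM in resistant cells, against 7798 and 10237 CPM in wild-type cells. The groups did not overlap for the sum, whereas they did for TCONS_00172899. Similarly, the run of TCONS_00358395 and TCONS_00358396 had 29464 and 32968 counts in the wild-type libraries, although TCONS_00358395 alone had 29464 and 6457. Its sum was at 546 and 847 CPM in resistant cells and at 818 and 998 CPM in wild-type cells, with overlap. TCONS_00039791, TCONS_00039792 and TCONS_00039793 were counted in all libraries, with sums of 995 and 801 CPM in resistant cells and 1253 and 1083 CPM in wild-type cells.

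**Figure D4:**
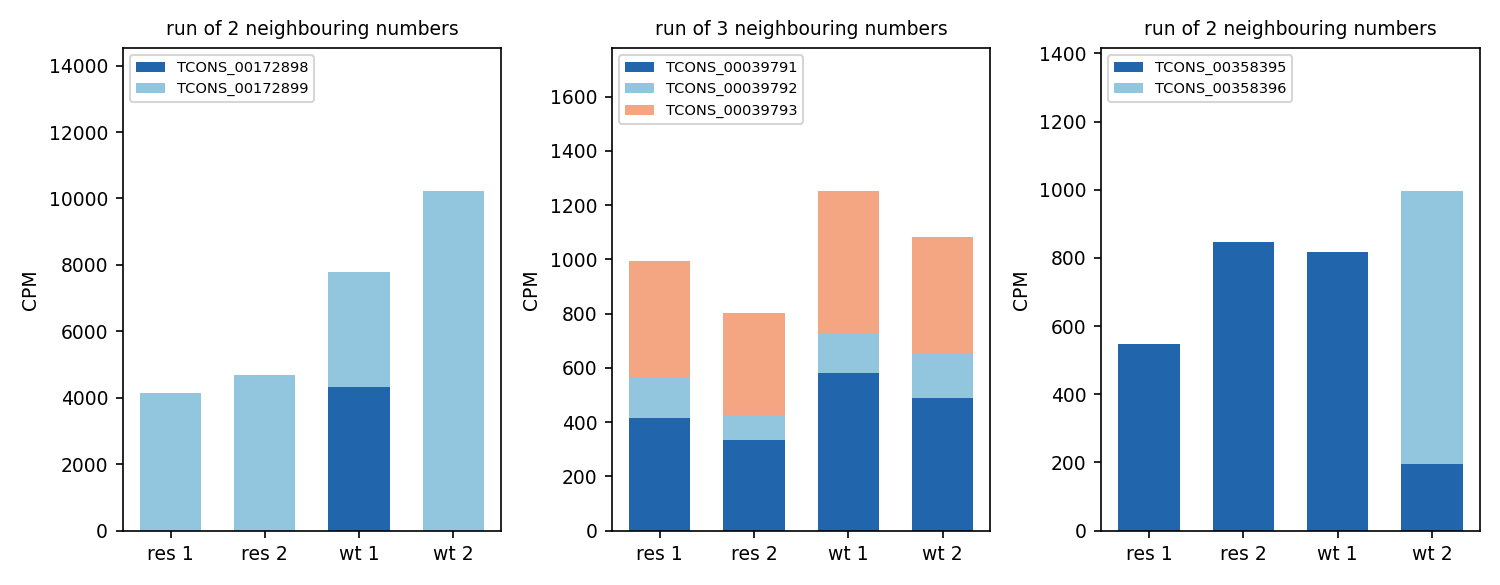
Stacked bars give CPM in resistant libraries (res) left and wild-type libraries (wt) right for the 3 runs of neighbouring identifier numbers with the most counts, with 1 colour for each transcript. In the left panel TCONS_00172898 has counts in wt 1 only, and in the right panel TCONS_00358396 has counts in wt 2 only, while the whole bars of the 2 wild-type libraries differ less than their single transcripts.

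The 8 runs of at least 8 transcripts, chosen by length after the values were seen, held 99 transcripts, and 7 of the runs had counts. In the run of 32 from TCONS_00281266 to TCONS_00281297 the summed counts were 11605 and 9744 in resistant cells and 5648 and 2987 in wild-type cells, which is 238.6 ± 23.4 CPM and 123.6 ± 46.9 CPM (SD, n = 2). In that run 23 of 32 transcripts had a higher mean in resistant cells, 13 were higher without overlap, and 2 were lower without overlap. Of all transcripts tested, 21.4% were higher and 18.9% lower without overlap. The counts of a run take in all its transcripts, tested or not, so the shares are not over like sets. The 8 transcripts from TCONS_00271696 to TCONS_00271703 all had a higher mean in resistant cells, with summed counts of 2772 and 1819 against 642 and 597 in wild-type cells, a 2.85-fold higher sum in CPM. The 8 from TCONS_00356162 to TCONS_00356169 likewise had sums of 1932 and 2099 in resistant cells and 384 and 640 in wild-type cells, 3.01-fold higher. Without overlap, 4 of 8 in the run from TCONS_00271696 and 5 of 8 in that from TCONS_00356162 were higher, and 0 in either were lower.

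The largest ratio among these belonged to the 8 from TCONS_00079608 to TCONS_00079615, with 999 and 1785 counts in resistant cells and 331 and 110 in wild-type cells, 5.00-fold higher in CPM. Of these 8, 5 were higher and 0 lower without overlap. Of the 11 from TCONS_00363201 to TCONS_00363211, the sums were nearly level, with 20086 and 20796 counts in resistant cells and 16394 and 13519 in wild-type cells, a ratio of 1.06 in CPM. This holds although TCONS_00363201, in that run, was counted in resistant cells only. Lower sums in resistant cells were found for the 14 from TCONS_00332545 to TCONS_00332558, at 38.3 ± 4.45 CPM in resistant cells and 79.1 ± 1.91 CPM in wild-type cells, and for the 8 from TCONS_00332563 to TCONS_00332570, at 30.3 ± 0.988 CPM and 59.9 ± 13.0 CPM (SD, n = 2). Of the transcripts in these runs, 7 of 14 and 4 of 8 were lower without overlap, against 18.9% of all transcripts tested, and 0 of 14 and 1 of 8 were higher without overlap, against 21.4%. Here too the counts take in transcripts that were not tested. The sums were not tested, and neighbouring runs may share a source.

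The order of the table gives a coarse place for most assembled transcripts. Its entries follow the chromosomes, and 2748 of the 2832 stood between Ensembl entries of 1 and the same chromosome in GENCODE release 29. Treated in the same way, 99.99% of 83930 Ensembl transcripts had the chromosome of their neighbours. The numbers in the identifiers, which were not used for this, fell into 23 ranges without overlap, 1 for each autosome and 1 for X. This is the chromosome of neighbouring entries, not a mapped position. By it, the block of chromosome 1 held the most assembled transcripts, 291, and that of chromosome 18 the fewest, 41. Per 100 Ensembl transcripts the numbers ran from 1.78 on chromosome 16 to 5.27 on X.

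Counts were spread far less evenly than transcripts. The 116 assembled transcripts of the chromosome 9 block, which include TCONS_00347441 and TCONS_00341423, held 35.9% and 39.0% of the counts of the class in resistant cells and 50.1% and 48.7% in wild-type cells. TCONS_00347441 alone made up 70.7% and 71.9% of that block in resistant cells and 84.4% and 79.7% in wild-type cells. The blocks of chromosome 19, with TCONS_00167923 and TCONS_00172899, and of chromosome 1, with TCONS_00025993, followed with 11.1% and 11.6% for chromosome 19 in resistant cells and 10.3% and 12.3% in wild-type cells, and with 8.85% and 10.8% for chromosome 1 in resistant cells and 9.36% and 9.02% in wild-type cells. The chromosome 3 block was at 5.16% and 2.63% in resistant cells and 1.97% and 2.08% in wild-type cells. In resistant replicate 1, 48.0% of it was the single transcript TCONS_00249952, which was near 0 in the other resistant library.

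**Figure D5:**
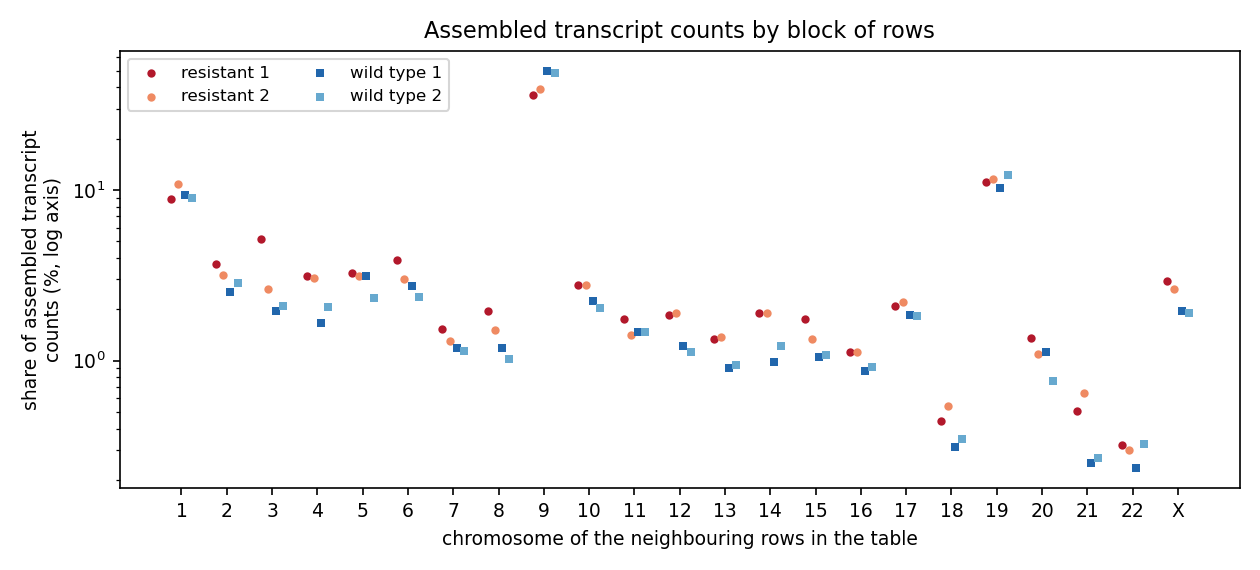
Points give the share of the counts of all assembled transcripts (%, log axis) that lies in each chromosome block of the table, with resistant libraries as red and orange circles left of wild-type libraries as blue squares. The chromosome 9 block is highest in all 4 libraries and lower in both resistant ones, at 35.9% and 39.0%, than in both wild-type ones, at 50.1% and 48.7%.

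The unadjusted edgeR list was also counted by block, where 4.56% of all transcripts tested were higher and 3.18% lower in resistant cells. The number of such assembled transcripts in a block ran from 1 for chromosome 13 to 19 for chromosomes 1 and 6. The chromosome 1 block had 10 higher and 9 lower of 194 tested, and that of chromosome 6 had 14 higher and 5 lower of 125. In the chromosome 5 block 12 of 131 were higher and 1 lower, with a median log2 fold change of 0.37, the highest of the 23 blocks. In the chromosome 11 block 0 were higher and 8 lower of 92, and in that of chromosome 17, 2 were higher and 8 lower of 105, with the lowest median of the blocks, -0.22. The long runs from TCONS_00281266 and from TCONS_00271696 stand in the chromosome 5 block. These blocks, other than that of chromosome 1, were singled out for their values, their differences were not tested, and no assembled transcript passed adjustment in edgeR.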

How the data were processed

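The deposited table gives an estimated count for every transcript in each library, and all its values are whole. The unit was read from the values, and the counts were used as deposited. Per the labels, each library was made from 2 µg of total RNA and sequenced as paired-end reads of 150 bases. The assembler, aligner, counting tool and annotation are not given in the sources used, and the submitters' processing notes list mm9, a mouse build, although the Ensembl identifiers are human. Chromosomes of Ensembl transcripts are from GENCODE release 29.

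All 106179 transcripts were filtered (edgeR's filter at a minimum count of 10) and tested together by edgeR's quasi-likelihood method (edgeR 4.0.16, R 4.3.3) with trimmed mean of M-values (TMM) scaling, resistant over wild type, two-sided, with Benjamini-Hochberg adjustment at 0.05. CPM values are relative to the TMM-scaled counts of tested transcripts, while shares use all counts of a library. With 2 libraries against 2, an exact permutation test cannot go below p = 0.333, so single values got none. Alternatives were DESeq2 1.42.0, limma-voom (limma 3.58.1), other scalings, no filter, a replicate block and leaving out each library. Scripts were tested on simulated data. Tables were handled in Python 3.11.15 with pandas 2.3.3, intervals were computed with SciPy 1.17.1, and matplotlib 3.10.9 drew the plots.

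Named transcripts were the 15 of highest mean, the 12 of smallest p in each direction, the 5 of highest count beside a 0 in each group and the 3 runs of most counts, with those said to be named after their values were seen. The members and lists were chosen with earlier results of these data known.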

Additional observations from a re-analysis of the deposited data

How the results depend on the processing

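The main limit is 2 libraries per group. The edgeR test called 0 assembled transcripts under every edgeR setting and in limma-voom, while the DESeq2 Wald test called 80 higher and 65 lower, 25 of them among the named ones. The 197 with an unadjusted p under 0.05 came to 302 in DESeq2 and to 131 with the replicate number as a block. These are 14.5% and 6.31% of the tested assembled transcripts, where all tested transcripts give 11.1% and 4.63%. The replicate numbers did not pair the libraries (correlation of deviations 0.00830 over all tested transcripts). Leaving out 1 library gave 198 to 296, the highest without wild-type replicate 1, where all tested transcripts give 6.42% to 9.15%. In these fits 2354 to 2404 assembled transcripts were tested, in place of 2076, so the counts have a larger base. Leaving out 1 library left 1483 to 1649 without overlap. These were 63.0% to 68.6% of the tested assembled transcripts, where all tested transcripts give 64.6% to 67.8%. It left 161 to 181 found in resistant cells only and 92 to 113 in wild-type cells only. The numbers without overlap and those found in 1 group only rise by construction, since fewer libraries have to agree. Medians of log2 fold changes then lay between -0.09 and 0.26.

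The share of counts was 10.6% in resistant cells over tested transcripts only. It was 7.94% in resistant cells and 8.80% in wild-type cells without TCONS_00347441, and 5.38% and 5.57%, in the same order, without the 5 of highest mean, a choice made after seeing the data, with the counts left out taken from the library totals too (of all counts, the shares are 5.09% and 5.08%). Without TCONS_00347441 the chromosome 9 block held 14.7% of the remaining counts in resistant cells and 14.8% in wild-type cells. The 10 highest of each library by its own order held 68.5% in wild-type cells. A limit of 100 counts in place of 1000 gave 253 transcripts at 0 in 1 resistant library and 289 in wild-type cells. These were 15.9% and 19.7% of those past the limit, against 11.9% and 12.5% for Ensembl identifiers. Sums over runs, also added after seeing the data, gave 12 runs in that state in resistant cells and 11 in wild-type cells. A limit of at least 100 counts left 27 found in resistant cells only and 16 in wild-type cells only. These were 0.953% and 0.565% of assembled transcripts, against 0.368% and 0.187% of all transcripts. Over those with at least 100 counts in both libraries of the group, the shares were 2.56% and 1.74%, against 2.00% and 1.19% among all transcripts. TCONS_00167923 had a log2 fold change of 0.046 on library totals, which moved the median of all tested transcripts to 0.14 in place of 0.02, and between -0.16 and 0.025 when 1 library was left out, and TCONS_00172899 between -1.21 and 0.34. Both were positive without wild-type replicate 2. Counts of a 0 beside a high value, and of runs, need both libraries and have no value with 1 left out. The cause of these changes was not tested.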
